A study of Bos taurus with 14 samples.

Results

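The enzymes described here make fat-soluble compounds, drugs and steroids easier to excrete, or build and inactivate steroid hormones. Cytochromes P450, flavin monooxygenases, aldo-keto reductases, carboxylesterases and epoxide hydrolases oxidise, reduce or hydrolyse a compound, and UDP-glucuronosyltransferases, sulfotransferases and glutathione S-transferases couple it to a sugar, a sulfate or glutathione. Hepatocytes are the main site of these reactions, and many of the genes are controlled by nuclear receptors that bind foreign compounds, bile acids or vitamin A derivatives. Probes were chosen by the names on the array, from the gene symbol or the symbol in brackets in the description, without regard to their signal. The names had to begin with CYP and a number (CYP51A1 left out), UGT1, UGT2, SULT, GSTA, GSTM, GSTP, GSTT, GSTK, GSTO, MGST, FMO, AKR1, ADH and a number, EPHX or CES.

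This gave 44 of 15011 probes, for 43 of the 6777 genes that could be named, because MGST2 had 2 probes. They comprised 21 probes of cytochromes P450, 10 of glutathione S-transferases (microsomal ones included), 3 of aldo-keto reductases, 1 of an epoxide hydrolase, and 2 each of flavin monooxygenases, carboxylesterases, UDP-glucuronosyltransferases and sulfotransferases. The remaining probe was FMOD, which matched only by its spelling: fibromodulin is a proteoglycan of the extracellular matrix, so 43 of the probes, for 42 genes, were for enzymes. No probe for an alcohol dehydrogenase matched. The array's CYP2D6, AKR1C1, UGT1A4, CYP17, CYP19 and CYP2B are given under the current bovine symbols CYP2D14, AKR1C4, UGT1A6, CYP17A1, CYP19A1 and CYP2B6. The array's own names were kept for CYP3A4 and CYP3A5, and also for CYP4F2, CYP4F3, GSTM1, GSTP1 and UGT2A1, whose current bovine entries carry only a locus name.

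The study gave Holstein heifers or steers 0.2 mg per kg body weight of β-cryptoxanthin, a carotenoid that can be converted to vitamin A, by mouth on day 0. Liver of 3 cattle (animals 58, 61 and 66) and peripheral neutrophils of 4 others (animals 25, 26, 32 and 34) were each profiled on day 0 and day 7, on 14 single-colour Agilent arrays. All groups share the breed and the agent, no group without the carotenoid was analysed here, and the labels give neither age nor the sex of an animal. Liver arrays lay on 1 slide and neutrophil arrays on another, and within each slide the days occupied different array positions. Tissue and slide, and day and array position, therefore cannot be told apart.

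Values are log2 of the spot's processed signal relative to the array's 75th percentile, so a value of 0 is a probe brighter than 75% of the array, and a difference of 1 is a doubling. Between 74.7% and 76.7% of spots were well above background on the liver arrays of day 0 and between 62.7% and 75.1% on those of day 7. On neutrophil arrays the share was 63.5% to 71.6% before and 57.1% to 69.0% after, lowest for animal 34 on day 7. No spot of the 44 probes was saturated or flagged as an outlier. All 19 hepatocyte markers on the array were well above background on every liver array. All 10 neutrophil markers on the array were so on every neutrophil array, where 11 of the hepatocyte markers on day 0 and 12 on day 7, ALB and APOB among them, were above background on no array.

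The probes are 60 bases long, and each value stands for what that sequence captured. Stretches of 30 bases are shown for the genes that the results below turn on, with the letters AATAAA, the sequence of the common polyadenylation signal, in capitals where they occur. The first 4 belong to the genes called or with the largest change over days in liver and to CYP3A4, the relative of the latter. The next 3 belong to genes with some of the widest gaps between tissues, and the last to a gene that differed between animals.
CYP2D14, bases 31 to 60: gtaggcctgatggtcAATAAAccagtgtct
CYP3A5, bases 19 to 48: ataaaactcagaAATAAAgacggccttcat
CYP3A4, bases 1 to 30: accccagttagtactatctactcctcctga
AKR1C4, bases 1 to 30: ctgtacacgtgcattctaccagaacatctt
GSTA2, bases 1 to 30: tttggttttgatcacgtataaaatcacgat
CYP1A2, bases 31 to 60: taggccaactatacttcaaaaAATAAAcaa
SULT2A1, bases 1 to 30: ccctttgtggcatccgactttttaaaaatg
CYP2B6, bases 1 to 30: ttggctaAATAAAtgaggcaaagaatgaaa

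The letters AATAAA stood on the printed strand of 12 of the 44 probes (27.3%), against 1700 of all 15011 probes (11.3%). On the other strand they stood in 1 of the 44 (2.27%) and in 627 of all probes (4.18%). The median GC content of the 44 probes was 45.0%, with a range of 25.0% to 60.0%, and that of all probes was 43.3%. The longest run of bases that any pair of the 44 probes shared was 11 of 60. The probes of CYP3A4 and CYP3A5 shared a run of at most 6 bases, those of CYP4F2 and CYP4F3 5, those of CYP1A1 and CYP1A2 7, and both MGST2 probes 4. The related genes named here were thus read by different sequences. Whether each probe captures only the transcripts of its own gene could not be checked. No source used here places the probes on the bovine genome.

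Liver and neutrophils were first compared on day 0. The 2 tissues came from different animals. In liver 38 of the 44 probes were well above background on every array of day 0, and the same number on day 7 (86.4%, against 72.6% and 62.1% of all probes). In neutrophils 23 were so on day 0 and 19 on day 7 (52.3% and 43.2%, against 62.4% and 54.3% of all probes). This test took the probes that were above background throughout liver or throughout neutrophils, which left 39 of the 44. CYP11B1, CYP19A1, CYP27B1, CYP2B6 and CYP4B1 did not enter. Of the 39, 37 differed (limma, Benjamini-Hochberg adjusted p under 0.05 over all probes tested), against 83.1% of all 11498 probes tested. Liver was higher for 34 of them (87.2%, against 39.7% of all probes) and neutrophils for 3 (7.69%, against 43.5%). The arrays of the tissues did not overlap for any of these (34 higher in liver, against 39.2% of all probes, and 3 lower, against 43.3%). The median difference was 4.68 over the 39 probes and -0.12 over all probes. On the day 7 arrays 36 of 39 differed, again 34 of them higher in liver, and with the row trend described below removed 36 of 39 on day 0 (against 82.7% of all probes). In bulk samples, fewer cells of a type and less RNA per cell cannot be told apart.

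**Figure D1:**
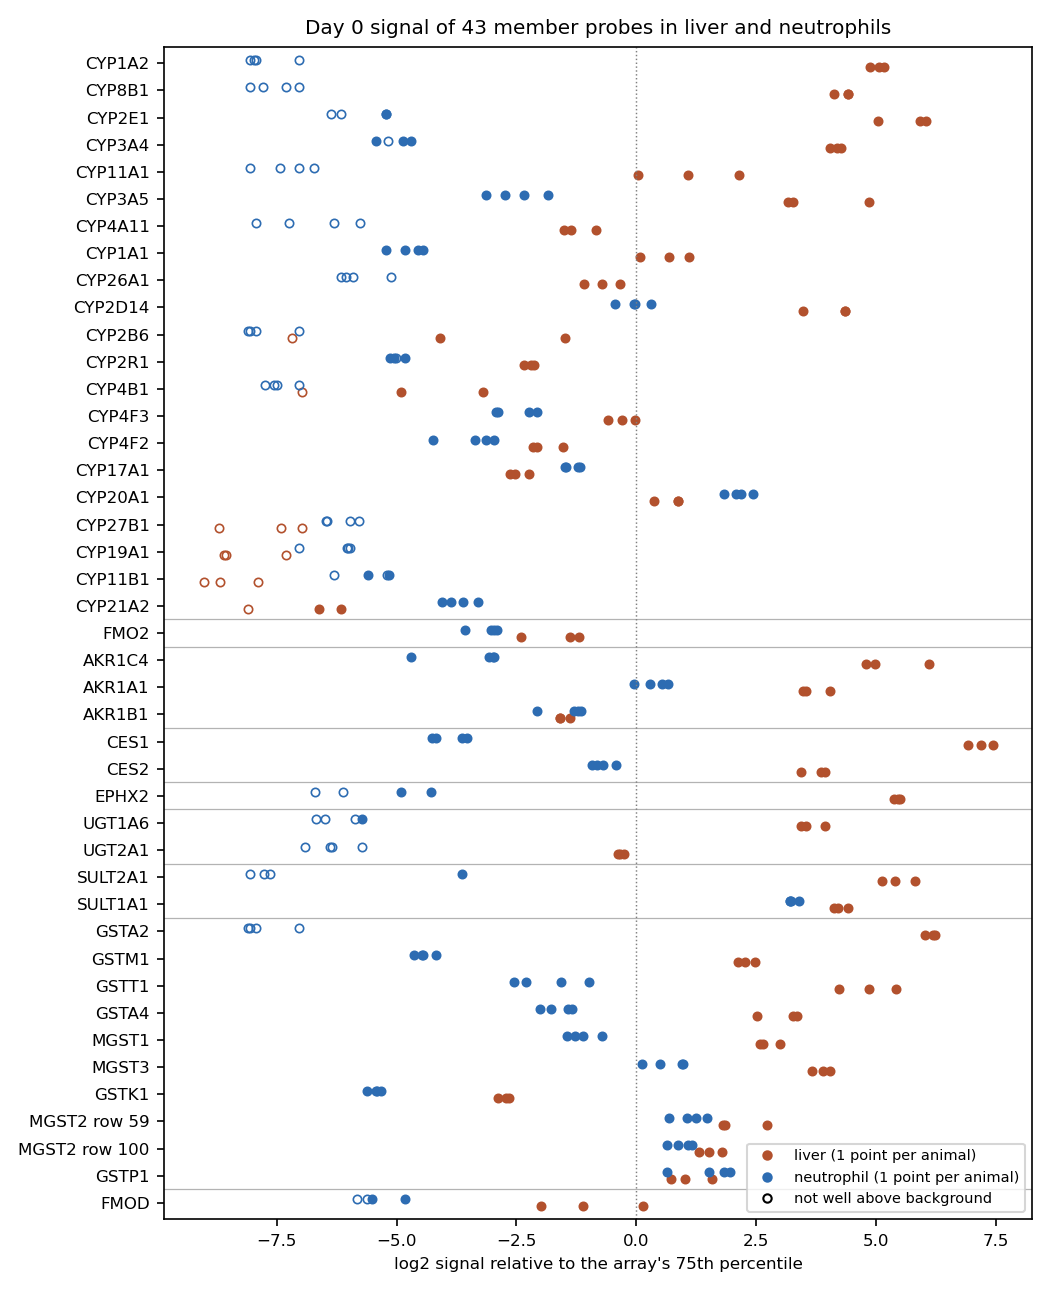
Signal of 43 of the 44 probes on day 0 (x axis, log2 relative to the array's 75th percentile), 1 point per animal, liver in brown (n = 3) and neutrophils in blue (n = 4); open points were not well above background, and lines part the enzyme classes. Most liver points lie to the right of the neutrophil points, those of GSTA2 at 6.02 to 6.24 with all neutrophil points open, while CYP17A1, CYP20A1 and CYP21A2 lie to the left and AKR1B1 and GSTP1 overlap.

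Among the P450s tested, 13 of 16 were higher in liver. CYP1A2, which oxidises caffeine and aromatic amines, read 5.18, 5.07 and 4.88 in the livers of animals 58, 61 and 66. All 4 neutrophil arrays were below background at -8.05 to -7.03. A probe with no array above background in a group has only a bound there. It was computed against the array's lowest signal that counted as above background, or the probe's own value where brighter. By this bound CYP1A2 was at least 1747-fold higher in liver (limma adjusted p 9.25e-09). These bounds hold for this scale alone. With normexp and quantile normalization, a background model that compresses dim signals, CYP1A2 differed by 9.06, against a log2 bound of 10.8. CYP26A1 then differed by 2.81, against a log2 bound of 4.97. CYP8B1, the sterol 12-alpha-hydroxylase of cholic acid synthesis, was at least 1060-fold higher (adjusted p 1.0e-08), with 4.43, 4.12 and 4.42 in liver. CYP2E1, the ethanol-inducible P450, read 5.05, 6.05 and 5.92 in liver and was above background in neutrophils of animal 25 alone, at -5.22. It was higher in liver (adjusted p from limma 4.26e-08), by a size that 3 neutrophil arrays at the limit of detection leave unmeasured. CYP3A4, of the family that handles the widest range of drugs, read 4.20, 4.27 and 4.05 in liver and -5.43, -4.86, -4.70 and -5.18 in neutrophils, the last not above background. Its difference was 9.22 ± 0.21 (SE of the fit, n = 3 and 4, adjusted p from limma 1.08e-08). CYP3A5 was well above background in all neutrophil samples of day 0, at -3.13 to -1.85, and differed by 6.28 ± 0.47 (adjusted p 3.57e-06).

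The other P450s higher in liver covered a wide span. CYP11A1, which cleaves the cholesterol side chain in steroid-forming tissue, was on no neutrophil array and at least 112.5-fold higher in liver. CYP26A1, which clears retinoic acid, was on no neutrophil array of day 0 and at least 31.4-fold higher, and CYP4A11, a fatty acid omega-hydroxylase, at least 22.4-fold. CYP1A1 differed by 5.38, CYP2D14 by 4.12 and CYP2R1, a vitamin D 25-hydroxylase, by 2.78. The size for CYP2D14, whose spot lies in row 4, depended on the row trend: with the trend removed it was 5.66. CYP4F3 and CYP4F2, whose human namesakes hydroxylate leukotriene B4 and fatty acids, were higher in liver by 2.22 and 1.51. With normexp and quantile normalization these were 1.70 and 0.81. Neutrophils held measurable CYP4F signal on all 4 arrays of day 0, from -2.93 to -2.06 for CYP4F3.

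Neutrophils were the higher tissue for 3 P450s. CYP20A1, whose substrate is not known, read 2.19, 2.08, 1.84 and 2.43 in neutrophils and 0.87, 0.38 and 0.86 in liver, a difference of -1.43 ± 0.21 (limma adjusted p 0.000227). CYP17A1, the steroid 17-alpha-hydroxylase, read -1.49 to -1.18 in neutrophils and -2.63 to -2.23 in liver, and differed by -1.12 ± 0.17 (adjusted p 0.000326). CYP21A2, the steroid 21-hydroxylase, read -4.06 to -3.29 in neutrophils, and -6.62, -6.15 and -8.09 in liver, where animal 66 was below background. Its difference was -3.25 ± 0.44 (adjusted p 0.000149). With a background model that compresses dim signals (normexp and quantile normalization), the difference of CYP21A2 was -0.91.

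The conjugating enzymes ranged from probes seen in liver alone to probes at like levels in both tissues. GSTA2, an alpha-class glutathione S-transferase abundant in hepatocytes, read 6.19, 6.24 and 6.02 in liver and was below background on every neutrophil array, so that liver was at least 3757-fold higher (adjusted p 8.61e-09). GSTM1 differed by 6.72, GSTT1 by 6.69, GSTA4 by 4.68, MGST1 by 3.88, MGST3 by 3.22 and GSTK1 by 2.70. For GSTK1, 3 of 4 neutrophil arrays of day 0 were above background, and the difference was 1.19 with normexp and quantile normalization. The MGST2 probes gave 1.02 (row 59) and 0.60 (row 100), in the same direction. With the row trend removed, the latter was 0.39 (adjusted p 0.0981). GSTP1, the pi-class enzyme found widely outside the liver, did not pass the test: liver read 0.73, 1.59 and 1.01, neutrophils 1.51, 0.65, 1.84 and 1.96, and the difference of -0.38 had a 95% interval of -1.19 to 0.43. The groups overlapped.

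SULT2A1, which sulfates dehydroepiandrosterone and bile acids, read 5.39, 5.14 and 5.81 in liver and was below background in neutrophils of animals 25, 26 and 32. Animal 34 read -3.64, and the difference from the liver mean passed the test (limma adjusted p 6.56e-06). Its size is not given, because 3 of the 4 neutrophil values mark only the limit of detection. SULT1A1, which sulfates phenols, was well above background on all arrays of both tissues, 4.41, 4.13 and 4.20 in liver and 3.21 to 3.39 in neutrophils, a 1.98-fold difference (adjusted p 0.000306). UGT1A6 was higher in liver (adjusted p 2.30e-08), at 3.44 to 3.94, with neutrophils of animal 26 alone above background at -5.71, and UGT2A1 was at least 42.2-fold higher in liver.

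The oxidising, reducing and hydrolysing enzymes outside the P450s were also mostly higher in liver. CES1, the main hepatic carboxylesterase, read 6.92, 7.19 and 7.43 in liver and -4.26 to -3.52 in neutrophils, a 2157-fold difference with all 7 arrays above background (adjusted p 9.88e-09). CES2 differed by 4.46 (22.0-fold). FMO2, a flavin monooxygenase, differed by 1.46, or by 0.88 with normexp and quantile normalization. EPHX2, the soluble epoxide hydrolase that opens fatty acid epoxides, was also higher in liver (adjusted p 3.14e-07), at 5.37 to 5.49, with neutrophils of animals 25 and 34 at -4.90 and -4.28 and the other two below background. AKR1C4, a 3-alpha-hydroxysteroid dehydrogenase, differed by 8.73 and AKR1A1, an aldehyde reductase, by 3.32. AKR1B1, aldose reductase, was the second probe that did not pass the test, at -0.08 with a 95% interval of -0.65 to 0.49. FMOD, the matrix protein, was higher in liver by 4.45, or by 2.48 with normexp and quantile normalization. Only 2 of 4 neutrophil arrays were above background for it, so its size is uncertain.

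Genes that work beside these enzymes were taken from lists. For the counts that follow, the shares over all probes tested on day 0 were 39.7% higher in liver and 43.5% higher in neutrophils. Of 7 P450 electron donors and haem enzymes on the array, 6 were higher in liver, with 6.57 for CYB5A (cytochrome b5), 4.47 for FDX1 (adrenodoxin) and 3.23 for CYB5R3. Of 16 nuclear receptors and cofactors tested, 8 were higher in liver and 8 in neutrophils. FOXA1 and FOXA2, transcription factors of hepatocytes, were at least 39.4-fold and 54.7-fold higher in liver, and NFE2L2, the activator of glutathione genes, was higher in neutrophils (-3.39, or -1.98 with the row trend removed). Cofactor supply was split, with 2 of 7 genes higher and 3 lower in liver. UGDH, which makes UDP-glucuronate, was higher by 6.44, whereas PAPSS1, which makes the sulfate donor, and PGD, which makes NADPH, read -4.03 and -4.43. Of the other conjugating and oxidising enzymes 14 of 19 were higher in liver and 3 lower, of the steroid dehydrogenases and reductases 9 of 12 and 3, and of the transporters 7 of 8 and 1.

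Day 7 was then compared with day 0 within liver, with the animal as a block. Of the 38 probes tested, 2 passed the adjusted threshold (5.26%), CYP2D14 and AKR1C4, both higher on day 7, against 3.98% of all 10935 probes tested (2.67% higher and 1.31% lower). At an unadjusted p under 0.05, 5 of the 38 were higher (13.2%, against 8.58% of all probes) and 0 lower (against 9.28%), where 17.9% of all probes passed in either direction. The mean change was positive for 25 of the 38 probes (65.8%, against 43.1% of all probes), and the median change was 0.12, against -0.04 over all probes. After quantile normalization the median of the 38 was -0.00, against -0.05 over all probes, and 19 of 38 were positive, against 40.4% of all probes. With the row trend described below removed, 29 of 38 were positive, against 51.2% of all, and the median was 0.14, against 0.01. Without the first and last 40 rows, 15 of 22 were positive, against 39.8% of all. The number of positive probes among the 38 thus depended on how arrays were scaled, while their share lay above that of all probes under each of these settings. The size of this gap was not tested. Both calls were also made with normexp and quantile normalization, against 4.74% of all probes. By animal, 19 of 38 probes were higher on day 7 in animal 58, 32 in animal 61 and 21 in animal 66, against 44.5%, 48.3% and 46.9% of all probes. The medians were -0.00, 0.28 and 0.08, against -0.04, -0.02 and -0.02 over all probes. In all 3 animals 10 probes were higher (26.3%, against 17.8% of all) and 3 lower (7.89%, against 22.7%).

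**Figure D2:**
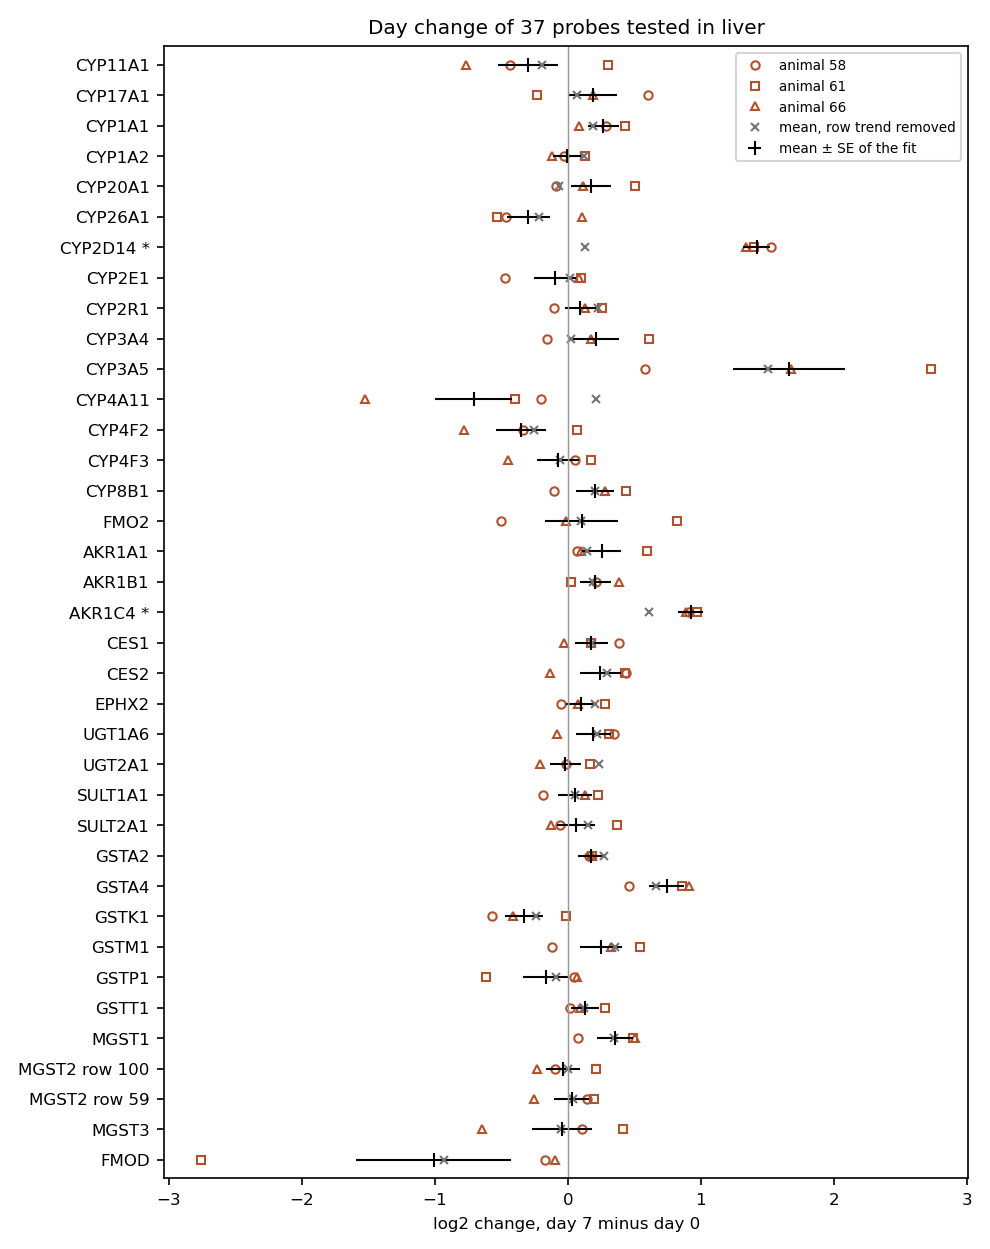
Change from day 0 to day 7 in liver (x axis, log2) of 37 of the 38 probes tested, with the value of each animal as an open symbol, the mean ± SE of the fit in black and the mean after removal of the row trend as a cross; an asterisk marks an adjusted p under 0.05. Both probes with an asterisk have 3 animals close together, at 1.34 to 1.53 for CYP2D14 and 0.89 to 0.97 for AKR1C4, and the cross for CYP2D14 lies at 0.13.

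The change over days in liver varied with the spot's row. Over all tested probes its median was 0.54 within the first 16 of 192 rows, 0.09 from row 17 to row 40 and -0.04 from row 41 to row 152. It was -0.09 from row 153 to row 176 and -0.38 over the outermost 16 at the far end. For the probes with the largest changes, the value after a smooth trend over rows was removed from each array is also given. For those near the edges, the median of all tested probes within 2 rows is given too. The trend was fitted to all spots but controls, dim ones included. At rows 4, 18 and 189 it took off more than that median, so sizes and signs after its removal are uncertain near the edges. Between rows 41 and 152 none of the 22 probes was called in a fit of those rows alone (0% of all 6475 probes there), and their changes in the fit over all rows lay between -0.33 and 0.36. With the trend removed, 0 of the 38 probes passed in liver, against 0.293% of all probes.

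**Figure D3:**
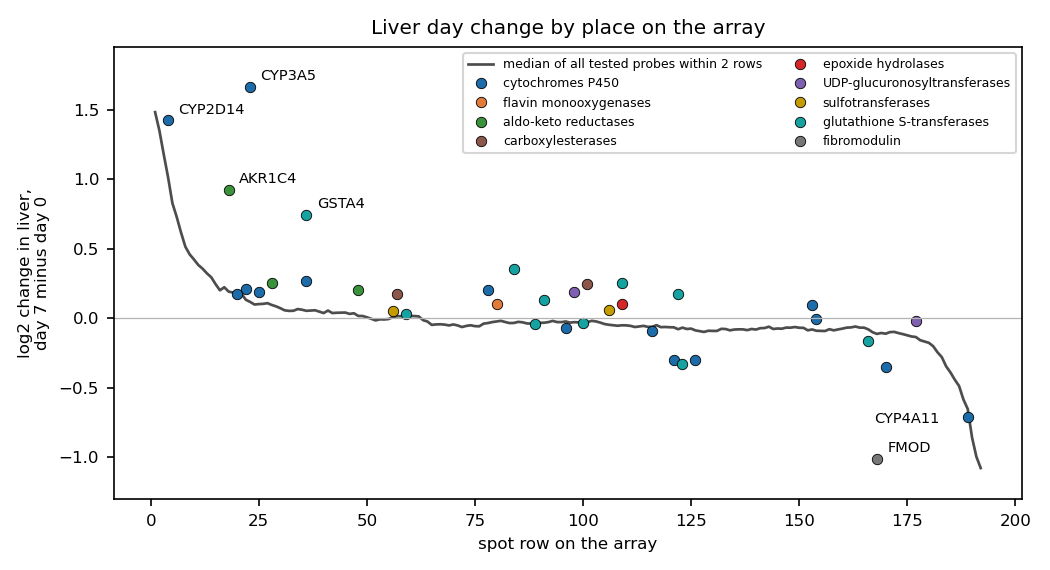
Change from day 0 to day 7 in liver (y axis, log2) against the spot row (x axis), with 37 of the 38 probes coloured by enzyme class and, as a line, the median of all tested probes within 2 rows. The line falls steeply over the first and last rows; CYP2D14 and CYP4A11 lie near it, at 1.42 beside 1.01 and at -0.71 beside -0.65, while CYP3A5 and AKR1C4 lie above it.

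CYP2D14, a bovine P450 of the 2D family that oxidises many basic drugs, read 4.35, 4.35 and 3.48 on day 0 and 5.88, 5.74 and 4.82 on day 7 in animals 58, 61 and 66. Every animal was higher on day 7 and the days did not overlap. It rose by 1.42 ± 0.10 (2.68-fold, limma adjusted p 0.0107). The spot lies in row 4, where 230 probes within 2 rows had a median of 1.01, and with the row trend removed the change was 0.13 (adjusted p 0.646). The call also depended on animal 58, without which the adjusted p was 0.116.

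AKR1C4 read 6.11, 4.98 and 4.80 on day 0 and 7.02, 5.95 and 5.69 on day 7. Each animal was higher by nearly the same amount, while the days overlapped because animal 58 was higher than the others on both. It rose by 0.92 ± 0.10 (1.90-fold, adjusted p 0.0198). In row 18 the surrounding probes had a median of 0.19, and with the trend removed the change was 0.61 (adjusted p 0.116). Without animal 58, 61 or 66 the adjusted p was 0.156, 0.0861 or 0.093.

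CYP3A5 had the largest change in liver and did not pass the test. It read 4.87, 3.17 and 3.27 on day 0 and 5.44, 5.91 and 4.95 on day 7, so the days did not overlap, but the animals differed widely, at 0.58, 2.74 and 1.68. The mean was 1.66 ± 0.42 (adjusted p 0.136), or 1.5 with the row trend removed (adjusted p 0.219), and surrounding probes in row 23 had a median of 0.12. The CYP3A4 probe in the adjoining row gave 0.21 ± 0.17 (adjusted p 0.609), with -0.15, 0.61 and 0.17 in the same animals. The difference between these probes' changes was not tested.

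GSTA4, which conjugates the lipid peroxidation product 4-hydroxynonenal, read 3.28, 3.35 and 2.51 on day 0 and 3.74, 4.21 and 3.43 on day 7, with no overlap. Its change was 0.74 ± 0.13 (adjusted p 0.0654) and 0.67 with the trend removed (adjusted p 0.153). MGST1, a microsomal glutathione transferase, was higher in all 3 animals by a mean of 0.36 (adjusted p 0.272), or 0.34 with the trend removed. Of the 38 probes, 3 were higher without overlap between days (7.89%, against 7.35% of all) and 2 lower (5.26%, against 7.95%). The last were CYP4A11 and GSTK1.

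The largest changes in the other direction did not pass the test either. FMOD read -1.11, 0.14 and -1.99 on day 0 and -1.29, -2.62 and -2.09 on day 7, a mean of -1.01 ± 0.58 (adjusted p 0.469) that came mostly from animal 61, and -0.93 with the row trend removed. CYP4A11 read -1.36, -1.51 and -0.85, then -1.56, -1.91 and -2.37. Its change of -0.71 ± 0.29 (adjusted p 0.306) turned to 0.21 with the row trend removed. Surrounding probes in row 189 had a median of -0.65, a smaller shift than the trend took off. CYP4F2 gave -0.35, GSTK1, the mitochondrial and peroxisomal kappa-class enzyme, -0.33, and CYP11A1 -0.30 (adjusted p 0.432, 0.337 and 0.581). With the trend removed these were -0.25, -0.24 and -0.20.

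For several of the brightest liver enzymes the interval of the change was narrow. CYP1A2 gave -0.01 with a 95% interval of -0.29 to 0.27. CYP2E1 gave -0.10 (-0.51 to 0.32), CYP8B1 0.20 (-0.17 to 0.58) and GSTA2 0.17 (-0.08 to 0.42). Intervals of this width leave out a doubling or a halving for these 4 genes. CYP26A1, the retinoic acid hydroxylase, gave -0.30 (-0.73 to 0.13), with -0.46, -0.53 and 0.10 in the animals.

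The remaining enzymes tested in liver gave small changes that did not pass the test. The hydrolases CES1, CES2 and EPHX2 gave 0.18, 0.25 and 0.10, and the flavin monooxygenase FMO2 0.10. Among the conjugating enzymes, UGT1A6 gave 0.19 and UGT2A1 -0.02, while SULT1A1 and SULT2A1 both gave 0.06. GSTM1 gave 0.25 and GSTT1 0.13, whereas GSTP1 gave -0.16, MGST3 -0.04 and the MGST2 probes 0.03 (row 59) and -0.04 (row 100). AKR1A1 and AKR1B1 were higher in all 3 animals, by 0.25 and 0.21 (adjusted p 0.468 and 0.460). Of the other P450s, CYP1A1, the dioxin-inducible one, gave 0.27, also higher in all 3 animals (adjusted p 0.334), CYP17A1 0.19, CYP20A1 0.17, CYP2R1 0.09 and CYP4F3 -0.07.

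In the gene lists, 4 of 67 genes tested were called in liver, against 3.98% of all probes, all of them in the outermost rows, and none with the row trend removed. GCLM, a subunit of the enzyme that starts glutathione synthesis, rose by 1.59 ± 0.17 (adjusted p 0.0217) in row 4 and NFE2L2 by 1.28 ± 0.14 (adjusted p 0.0226) in row 5. With the trend removed these were 0.30 and 0.09. GLYAT, which conjugates glycine, fell by 0.90 (adjusted p 0.0410) and HSD3B1, a steroid dehydrogenase, fell by 1.12 (adjusted p 0.0378), both in row 192. These turned to 0.26 and 0.04. Of 7 electron donors and haem enzymes and 8 transporters tested, 0 were called by limma, with medians of -0.14 and -0.03, against -0.04 over all probes. At an unadjusted p under 0.05 there were 3 and 1, where 17.9% of all probes passed. SLC10A1, the bile salt uptake transporter, gave 3.59 ± 0.68 (adjusted p 0.0751) in row 5, or 2.39 with the trend removed (adjusted p 0.222).

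Markers of other cells also moved between the liver samples of both days. The hepatocyte list summed to 1086 to 1265 on day 0 (linear signal relative to the 75th percentile) and to 1448 to 1841 on day 7, and 18 of its 19 genes had a positive change, with 3 called, or 0 with the row trend removed. The 11 skeletal muscle markers on the array summed to between 0.29 and 0.83 before and to between 5.10 and 19.7 after, with 9 of 10 tested called higher, or 7 with the row trend removed. Of the 11, 6, CKM and MB included, were above background on no liver array of day 0. The neutrophil list summed to between 4.20 and 10.8 before and to between 2.89 and 3.46 after. The part of these in the changes above was not tested.

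In neutrophils 24 of the 44 probes were tested and 0 passed the adjusted threshold in limma, as did 0 (0%) of all 9450 probes tested. At an unadjusted p under 0.05, 3 of the 24 were found (12.5%, against 13.4% of all probes), AKR1A1 and MGST1 higher (8.33%, against 8.80%) and CYP21A2 lower on day 7 (4.17%, against 4.60%). The change was positive for 11 of 24 (45.8%, against 44.4% of all), higher in all 4 animals for 3 (12.5%, against 11.2%) and lower in all 4 for 1 (4.17%, against 13.3%). The median change was -0.07 over the 24 probes and -0.07 over all probes.

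**Figure D4:**
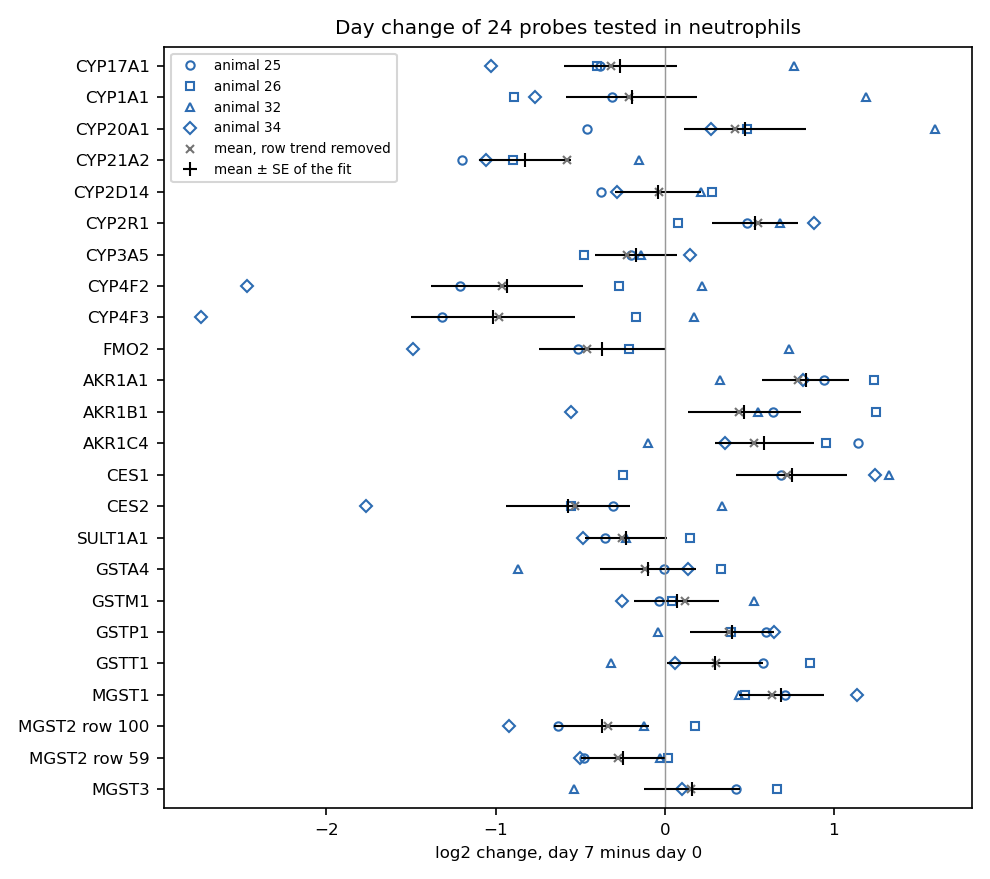
Change from day 0 to day 7 in neutrophils (x axis, log2) of the 24 probes tested, with the value of each of 4 animals as an open symbol, the mean ± SE of the fit in black and the mean after removal of the row trend as a cross. AKR1A1, CYP2R1 and MGST1 have all 4 animals above 0 and CYP21A2 has all 4 below, while CYP4F2 and CYP4F3 are spread widely, with animal 34 at -2.47 and -2.74.

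AKR1A1 read 0.28, -0.04, 0.67 and 0.54 on day 0 in animals 25, 26, 32 and 34 and 1.23, 1.19, 1.0 and 1.36 on day 7. All 4 animals were higher and the days did not overlap, with a mean of 0.83 ± 0.26 (limma adjusted p 0.314). The other aldo-keto reductases were positive too, at 0.59 for AKR1C4 and 0.47 for AKR1B1, each in 3 of 4 animals. MGST1 read -1.45, -0.71, -1.12 and -1.28, then -0.74, -0.23, -0.68 and -0.14. Its mean was 0.69 ± 0.25 (adjusted p 0.335), with all 4 animals higher and the days overlapping. CYP2R1 was higher in all 4 animals without overlap, by 0.53 (adjusted p 0.398), from a signal near the limit of detection. Probes higher without overlap were 2 of 24 (8.33%, against 4.85% of all probes) and 0 were lower (against 4.53%). CES1 was higher in 3 of 4 animals, by 0.75 (adjusted p 0.376).

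CYP21A2 read -4.06, -3.62, -3.87 and -3.29 on day 0 and -5.26, -4.51, -4.03 and -4.35 on day 7. All 4 animals were lower, the days overlapped, and the mean was -0.83 ± 0.27 (adjusted p 0.327). CYP4F3 read -2.23, -2.93, -2.06 and -2.88, then -3.55, -3.10, -1.89 and -5.62, the last not above background. Its mean of -1.01 ± 0.49 (adjusted p 0.40) was -0.44 without animal 34. CYP4F2 gave -0.93 (adjusted p 0.40) with the same animal lowest. CES2 gave -0.57, with -1.77 in animal 34 and -0.30, -0.55 and 0.34 in animals 25, 26 and 32. The MGST2 probe in row 100 gave -0.37, beside -0.25 for the one in row 59. CYP2D14, called in liver, gave -0.04 ± 0.25 in neutrophils.

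The other probes tested in neutrophils did not pass either. CYP20A1 gave 0.48 in the mean, with -0.46 in animal 25 and 1.60 in animal 32, and CYP1A1 gave -0.19, with 1.19 in animal 32 and negative values in the other animals. FMO2 gave -0.37, with -1.49 in animal 34, where it was not above background on day 7. CYP17A1 gave -0.26, SULT1A1 -0.23 and CYP3A5 -0.17. GSTP1 gave 0.40 and GSTT1 0.30, each higher in 3 of 4 animals, MGST3 0.16, GSTM1 0.07 and GSTA4 -0.10. The animals were thus spread over both directions for most of these probes.

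None of the 48 genes of the 6 lists was called by limma in neutrophils, and 7 had an unadjusted p under 0.05, against 13.4% of all probes. Among those with the smallest adjusted p, AHR, the receptor that induces CYP1 genes, gave -1.23 (adjusted p 0.301), UGDH 0.91 (adjusted p 0.313) and the transporter ABCG2 0.90 (adjusted p 0.313). Markers of lymphocytes reached higher summed levels in the neutrophil samples of day 7, with overlapping ranges for the T and NK cell list. The T and NK cell list summed to 11.02 to 37.6 on day 0, compared with 23.4 to 105.5 on day 7. The B cell list summed to 6.64 to 12.8, then to 12.9 to 22.0. The eosinophil and basophil list, of which 2 genes were on the array, summed to 1.15 to 3.72 and then to 0.54 to 0.78, without overlap. The neutrophil list itself summed to 813.5 to 977.6 and 650.4 to 1369. Their part in the changes of the enzymes was not tested.

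Whether the change over days differed between the tissues was tested for the 23 probes measured in both. None passed the adjusted threshold in limma, against 1.14% of all 8841 probes, and 3 (13%, against 13.5% of all) had an unadjusted p under 0.05. All 3 had the larger change in liver, where 5.60% of all probes were found, against 7.87% the other way. The difference was positive for 14 of 23 (60.9%, against 52.1% of all). CYP2D14 was at the threshold, with a difference of 1.46 ± 0.28 and an adjusted p of 0.05004 that just missed it. Leaving out animal 32 or animal 34 brought it past the threshold (adjusted p 0.0393 and 0.0328), as did normexp and quantile normalization (0.0373, with 1.13% of all probes called). Removal of the row trend left a difference of 0.17 (adjusted p 0.814), and 0 of the 23 probes then passed, against 0.0452% of all. CYP3A5 gave 1.83 ± 0.47 (adjusted p 0.123) and GSTA4 0.84 ± 0.34 (adjusted p 0.328). AKR1C4, called in liver, gave 0.34 with a 95% interval of -0.45 to 1.12, so its changes of 0.92 in liver and 0.59 in neutrophils were not shown to differ. The median difference was 0.28 over the 23 probes and 0.03 over all probes.

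Animals differed from each other more than the days did for part of the enzymes. The genes in the next sentences were chosen after their values were seen. CYP2B6, of the phenobarbital-inducible P450 family, was below background in the liver of animal 58 on both days. In animal 61 it read -1.49 on day 0 and -1.22 on day 7, and in animal 66 -4.10 and -4.01. The order of the animals was thus the same on both days. CYP11A1 read 0.04 and -0.40 in animal 58, 1.07 and 1.38 in animal 61, and 2.15 and 1.38 in animal 66. GSTT1 means per animal spanned 1.11, against a largest change of 0.28 within an animal. In neutrophils SULT2A1 was above background in animal 34 alone, at -3.64 and -3.92.

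**Figure D5:**
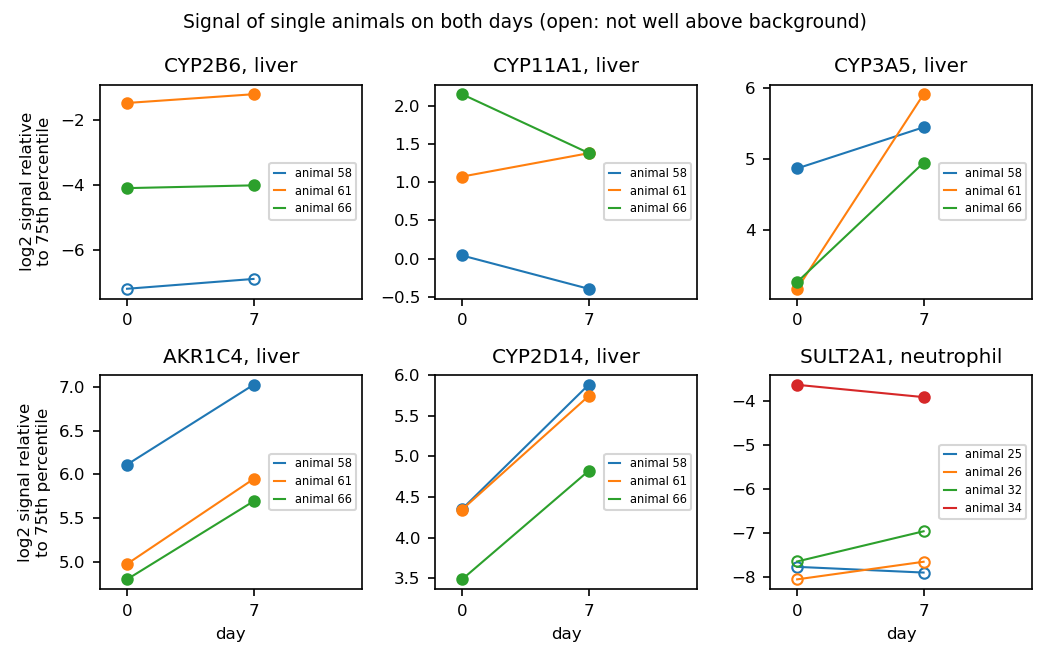
Signal of 6 probes on day 0 and day 7 (x axis) relative to the array's 75th percentile (y axis, log2), 1 line per animal, with open points where the spot was not well above background. The CYP2B6 lines stay apart and nearly level, with animal 61 at -1.49 and -1.22, and in the SULT2A1 panel only animal 34 has filled points, while the 3 lines of CYP2D14 and of AKR1C4 run parallel upward and those of CYP3A5 cross.

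Other probes varied without a fixed order. CYP4B1 in liver read -4.91, -3.20 and -6.98 on day 0 and -4.46, -7.20 and -3.94 on day 7, with animal 66 below background on day 0 and animal 61 on day 7. EPHX2 in neutrophils of animal 25 read -4.90 on day 0 and -1.91 on day 7, while animal 26 was below background on both days. Over the 38 probes tested in liver, the range of the animals' means was larger than the largest change within an animal for 14 (36.8%, against 44.8% of all probes). In neutrophils this held for 7 of 24 (29.2%, against 20.6% of all). On day 0 in liver the range over animals was larger than the mean change over days for 35 of 38 (92.1%, against 83.2% of all).

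CYP2B6 and CYP4B1 entered no test because the probe was not above background in every liver sample of either day. CYP11B1, CYP19A1 and CYP27B1, which make cortisol, oestrogens and active vitamin D, were above background on no liver array of either day. In neutrophils CYP11B1 was above background in animals 26 and 32 on day 0, at -5.15 and -5.59, and CYP19A1 and CYP27B1 on no array. In all, 11 of the 44 probes were above background on no neutrophil array of either day.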

How the data were processed

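The deposited spot intensities are processed signals of Agilent Feature Extraction (9.5.1.1 per the file headers, 9.5 per the submitters' processing notes), background-subtracted per the file headers. Flags and spot rows are other columns of the same files, per the file headers. The log2 values in the authors' deposited table matched log2 of these signals with 1 offset in each array, which differed from the array's 75th percentile by -0.013 to -0.007 (medians of the columns -3.55 to -2.69). Its centring on that percentile and its direction were found from the data.

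Control spots and outlier-flagged spots (0 to 18 per array) were left out, saturated ones (0 to 3) kept. Log2 signals minus the array's 75th percentile were averaged over spots of a probe. Probes were tested where every array of any group compared exceeded background, and for the difference between tissues where this held for some day in both. Fits used limma 3.58.1 (R 4.3.3; lmFit, eBayes), two-sided, Benjamini-Hochberg over all probes tested, threshold 0.05, and were tested on simulated data. The animal was a block, since the labels name the same animals on both days. The paired deviations correlated at 0.65, 0.31 and 0.61 in liver and at 0.61, 0.36, 0.03 and 0.24 in neutrophils. Errors are the fit's SE, moderated over all probes. The number of arrays limits the precision, and with 3 animals an adjusted p rests on pooling over probes.

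Of the 44 probes, 18 were named through their accession, 12 through the gene number, 11 through the symbol and 1 through an older symbol in an NCBI RefSeq gene table (assembly ARS-UCD2.0, for names alone), and 2 kept the file's name. No source used here names a genome build. The row trend was a loess curve (span 0.3) of row medians, fitted per array. Alternatives were quantile normalization, normexp (offset 50) with quantile normalization, the authors' table, other filters on dim probes, no first and last 40 rows, no block, 1 fit over all arrays, each animal left out, the mean over probes of a gene and the day 7 arrays for the tissue comparison. The probes, lists and tests were chosen with earlier results of these data known. Named genes are those called over days, per class the up to 4 widest gaps between tissues, per tissue the 5 largest changes each way, and up to 3 per list by adjusted p; other probes are described to account for the rest. The values of 1 probe are not reported here, though it stays in all counts.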

Additional observations from a re-analysis of the deposited data

Results flagged for a closer look

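In 1 of 22 groups of 4 samples, a sample stood apart from the others of its group by Dixon's test at the 95% level, which chance gives in about 1 of 20 groups. AKR1C4 in neutrophils of day 0 read -4.70 in animal 26, with the nearest other animal at -3.07. On day 7 the same animal was again the lowest, at -3.75.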

How the results depend on the processing

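Liver arrays gave 2 calls among the enzymes. There were 2 with quantile normalization, with normexp and quantile normalization and with the authors' values, and 3 with probes above background on every array. There were 0 with no filter on dim probes, with the row trend removed and without the first and last 40 rows (22 probes tested, neither called probe among them), and 1 with 1 fit over all arrays. With no replicate block there were 0, so both calls rest on the pairing by animal; without 1 animal each the count was 0 to 1, the lowest without animal 58. The cause of the other losses was not tested. Neutrophils gave 0 calls under every alternative run. The difference between tissues gave 1 call, CYP2D14, with normexp and quantile normalization, with the authors' values and with probes above background on every array, and 0 to 1 without 1 animal each. A filter chosen after seeing the data, any group above background, gave 0 calls of 39 tested. Liver against neutrophils gave 37 calls, 20 of 22 tested with probes above background on every array and 21 of 22 in the inner rows, where fewer probes were tested, and 36 to 42 otherwise. Among named genes, 5 values changed sign: CYP4A11 in liver (0.21 with the row trend removed), CYP2D14 in neutrophils (-0.15 to 0.072 without 1 animal each, positive without animal 25 or 34), AKR1B1 between tissues (-0.30 to 0.015, positive without animal 25) and MGST2 in liver (-0.0039 as the mean of its probes). Of the other alternatives for named genes, 576 kept direction and side of the threshold, 11 lost a call and 7 gained one. The block changed no other count of calls.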
